A study of Mus musculus with 6 samples.

Results

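The transcripts of the mitochondrial chromosome were followed in mouse embryonic stem cells whose cytoplasmic protein synthesis was blocked. They are every row of the gene count files whose name ends in chrM, 37 of 17485 rows: 13 messenger RNAs (mRNAs), 2 ribosomal RNAs (rRNAs) and 22 transfer RNAs (tRNAs). The cells were E14, an embryonic stem cell line of 129/Ola background, on gelatin in serum with leukaemia inhibitory factor, and treatment began 24 h after seeding. Cycloheximide, which stops elongation on cytoplasmic ribosomes, was given at 250 ug/mL in 0.007% ethanol for 3 h or for 6 h, and control cells had ethanol without the drug for 9 h. Each of the 3 groups had 2 libraries, all from this 1 cell line. Hours in ethanol therefore differ along with the drug, and their part cannot be told apart from it. The sources do not say whether the 2 libraries of a group came from separate cultures, so p-values measure the spread between these libraries, which may be technical.

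Mitochondrial DNA is a small circle that is copied into RNA from both of its strands as long precursors. The precursor called here the heavy-strand transcript carries both rRNAs, most tRNAs and all but 1 of the mRNAs, and the light-strand transcript carries Nd6 and the remaining tRNAs. The tRNAs lie between the other genes, and cutting them out frees the mRNAs and rRNAs, most of which then receive a short poly(A) tail. The mRNAs encode core subunits of the respiratory chain and of ATP synthase and are translated inside the organelle, on ribosomes that cycloheximide is not known to inhibit, whereas the proteins that copy, cut and degrade mitochondrial RNA are made in the cytoplasm from nuclear genes.

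All 37 rows matched a gene of the GENCODE annotation of GRCm38, the assembly also called mm10, which the submitters' processing notes name. Of 36 neighbouring pairs of genes, 9 overlapped, 12 abutted and 15 were separated by at most 32 bases, and 7 mRNAs were followed directly by a tRNA of the same strand. Nd6 and 8 tRNAs, 9 rows in all, were on the light-strand transcript and 28 rows on the heavy-strand transcript. For those 7 mRNAs, cutting out the tRNA would put the start of the tail at or next to the last codon. mtCo1, mtNd5 and mtNd6 are followed by a gene on the other strand, and mtAtp8, mtAtp6 and mtNd4l by another mRNA. The annotated end of these need not be where a tail begins. Of the 13 mRNAs, 8 ended in TAA, 2 in TAG (mtNd1 and mtNd2) and 3 in a lone T (mtCo3, mtNd4 and mtCytb), where the tail supplies the rest of the stop codon. The last 30 bases are shown, 5′ to 3′ and with the last codon in capitals, for the 4 mRNAs with the lowest fitted change at 6 h and for 2 of the 3 with the smallest. They were read from the GENCODE transcripts.
mtNd1, chrM:3678-3707, plus strand: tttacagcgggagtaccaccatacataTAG
mtNd2, chrM:4922-4951, plus strand: ctacccctagccccccaactaattaccTAG
mtNd3, chrM:9777-9806, plus strand: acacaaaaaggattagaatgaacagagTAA
mtNd6, chrM:13552-13581, minus strand: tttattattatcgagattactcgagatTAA
mtCo1, chrM:6843-6872, plus strand: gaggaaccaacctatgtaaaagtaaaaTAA
mtNd5, chrM:13536-13565, plus strand: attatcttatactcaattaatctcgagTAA
mtNd5 and mtNd6 lie end to end on opposite strands and share 14 bases. mtAtp8 and mtAtp6 are read from the same RNA in different frames and share 43 bases, shown with the first codon of mtAtp6 and the last codon of mtAtp8 in capitals.
mtAtp8 and mtAtp6, chrM:7927-7969, plus strand: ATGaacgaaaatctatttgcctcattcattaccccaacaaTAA
The tRNAs on either side of mtNd2 are shown whole, because they had the highest counts of the tRNA rows.
mt-Tm, chrM:3845-3913, plus strand: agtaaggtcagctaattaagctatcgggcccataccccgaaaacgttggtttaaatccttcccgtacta
mt-Tw, chrM:4950-5016, plus strand: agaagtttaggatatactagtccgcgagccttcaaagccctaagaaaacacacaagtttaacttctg
The way the authors' counting treated overlapping genes, strand, and reads that also match copies of mitochondrial DNA in the nuclear genome is not given in the sources used here. Without strand, reads of mtNd6 and of the heavy-strand precursor across it cannot be told apart, and values of overlapping genes are uncertain to that extent.

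The labels give the molecule as polyadenylated RNA. Library totals ran from 9385447 to 27351079 counts, highest in the 6 h group, and replicate libraries differed beyond counting noise in each group (chi-square per degree of freedom over all rows 27.5 in control, 18.7 at 3 h and 27.7 at 6 h). Over the chrM rows alone it was 6805, 1845 and 2083, a value that also grows with their high counts. All 12 embryonic stem cell markers checked, among them Pou5f1, Sox2 and Nanog, had at least 10 counts in both libraries of every group. Their summed level was 7461 to 7620 CPM (counts rescaled to 1 shared library total) in control, 8378 to 8671 at 3 h and 5911 to 6067 at 6 h. Members differed in direction at 3 h. Sox2 (2282 and 2602 CPM in control, 3849 and 3958 at 3 h) and Klf4 lay above control, and Zfp42, Utf1, Tfcp2l1 and Fgf4 lay below it. Of 8 fibroblast or feeder markers 6 were in the files, with summed levels of 8.37 to 10.6 CPM in control, 5.94 to 12.1 at 3 h and 4.10 to 7.59 at 6 h, and 2, 3 and 1 of them at 0 in both libraries. The 4 endoderm markers in the files summed to 3.93 to 4.89 CPM in control, 13.1 to 13.6 at 3 h and 7.72 to 11.5 at 6 h, with no overlap between groups. Mesoderm markers summed to at most 10.4 CPM, while the 4 neural markers summed to 329 to 342 CPM in control, 285 to 327 at 3 h and 144 to 152 at 6 h. The lower neural sum at 6 h came from Tubb3 (262 and 267 CPM in control, 75.1 and 68.4 at 6 h). Nes (3.63 and 1.96 in control, 8.45 and 10.7 at 6 h) and Pax6 (1.26 and 1.59, then 2.94 and 2.91) were higher, and Sox1 overlapped control. The part of these shifts in the mitochondrial values was not tested.

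Mitochondrial RNA took a smaller share of the library after cycloheximide. The chrM rows held 24.7% and 24.9% of all counts in the control libraries, 19.6% and 18.9% at 3 h, and 17.4% and 16.6% at 6 h. The means were 24.8% ± 0.135 (SD, n = 2), 19.3% ± 0.520 (SD, n = 2) and 17.0% ± 0.595 (SD, n = 2), and no library of any group overlapped another group. The control libraries were close in this total but not in its make-up. Their mRNA rows held 22.2% and 24.0% of all counts, and their rRNA rows 2.47% and 0.845%. The mRNA rows alone averaged 23.1% ± 1.28 in control, 17.6% ± 0.258 at 3 h and 15.2% ± 0.871 at 6 h (SD, n = 2 each). The exact (Clopper-Pearson) 95% interval of the second control library, the shallowest, ran from 24.8% to 24.9% and covers counting error only, since reads need not be separate molecules. With 2 libraries against 2, an exact two-sided permutation test cannot give a p below 0.333, and the shares are given without a test. Bulk counts are relative: less mitochondrial RNA per cell, more RNA from the nuclear genes, and a change in the mix of cells cannot be told apart. The labels give polyadenylated RNA, so a change in the poly(A) tails of mitochondrial RNA cannot be told apart from these either. That holds for each mRNA, rRNA and tRNA row below.

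Row by row, mRNAs of all 4 enzyme complexes fell. In edgeR's quasi-likelihood fit over all rows, with an adjusted p under 0.05 as a call, 10 of the 13 mRNAs were called lower at 3 h and 12 at 6 h, and none was called higher. All rows tested gave 4.9% called at 3 h (1.3% lower, 3.6% higher) and 29% at 6 h (14.3% lower, 14.8% higher). The median log2 fold change of the 13 mRNAs was -0.59 at 3 h and -0.97 at 6 h, against 0.02 and 0.04 over all 12755 tested rows. Both rRNAs and 7 tRNAs also passed the low-count filter, so 22 chrM rows were tested, and with these 11 were called lower at 3 h and 16 at 6 h. In 19 of the 22 rows at 3 h and 17 at 6 h every treated library lay below every control library, against 24.8% and 31.2% of all tested rows, and in no row did both lie above (28.4% and 35.7% of all tested rows). Both comparisons use the same control libraries, so their calls are not separate evidence.

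**Figure D1:**
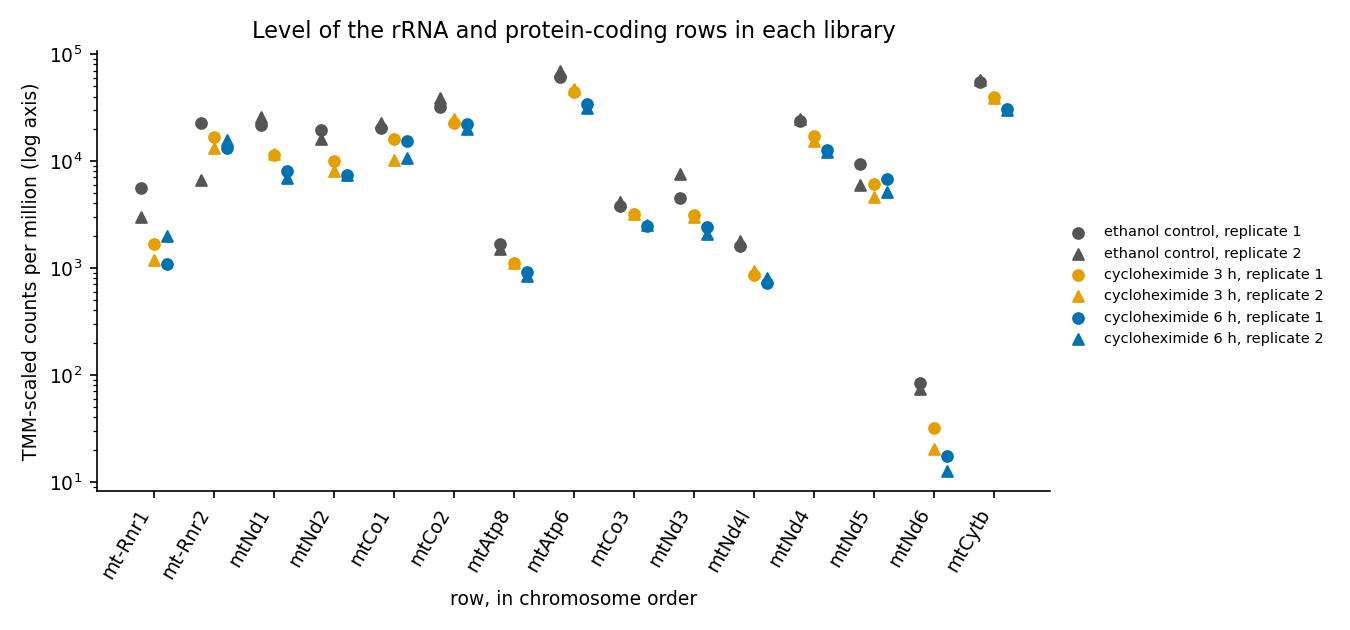
Level of each mRNA and rRNA row in each of the 6 libraries, in TMM-scaled CPM on a log axis, with rows in chromosome order; circles are replicate 1 and triangles replicate 2. Control points lie above both treated groups for most mRNAs, mtNd6 lies far below the other rows, and the control libraries are widely apart for mt-Rnr2 (22566 and 6688 CPM).

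The size of these falls depends on the scaling, because the chrM rows were so large a share of the libraries. Levels here are CPM after TMM scaling (trimmed mean of M values), which sets the bulk of rows at no change. With library size alone, the median of all rows moved to 0.25 at 3 h, 0.40 at 6 h and 0.14 for 6 h against 3 h, while the chrM median stood at -0.52, -0.63 and -0.19. Under that scaling 8 chrM rows were called lower at 3 h and 13 at 6 h, and 95.8%, 88.2% and 56.5% of all calls were to the higher side, against 73.4%, 50.8% and 27.8% with TMM. Scaled to the chrM total, mtAtp8, mtCo2, mtCo3, mtCytb and mtNd5 were on the higher side at both times, mtAtp6 and mtNd4 at 3 h and mtCo1 at 6 h. TMM factors from nuclear rows alone left the chrM counts at 11 and 16. Leaving out a 3 h library cut the 3 h count of chrM calls to 4 (without replicate 1) or 3 (without replicate 2), while at 6 h no omission brought it below 12.

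Complex I, the NADH dehydrogenase at the entry of the respiratory chain, has 7 of its subunits encoded here, and 6 of them were called lower at both times (median log2 fold change -0.97 at 3 h and -1.28 at 6 h). mtNd1, a membrane subunit near the quinone site, was at 21742 and 25871 CPM in the controls, 11383 and 11526 at 3 h, and 8090 and 6915 at 6 h. Each group lay below the one before it, with no overlap. mtNd1 fell by 51.9% at 3 h (log2 fold change -1.06, SE 0.11, adjusted p = 0.00195) and fell by 68.5% at 6 h (-1.67, SE 0.11, adjusted p = 7.47e-05). mtNd2, a membrane subunit of the proton-pumping arm, was at 19482 and 16186 CPM in the controls, 10008 and 8075 at 3 h, and 7357 and 7379 at 6 h. It fell by 49.3% at 3 h (-0.98, SE 0.12, adjusted p = 0.00492) and fell by 58.7% at 6 h (-1.28, SE 0.12, adjusted p = 0.000464). Among the 3 h calls, only those of mtNd1 and mtNd2 held in each of the 6 fits that left out 1 library.

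The membrane subunits mtNd3, mtNd4l and mtNd4 of complex I followed the same order of groups. mtNd3 was at 4505 and 7495 CPM in the controls, 3145 and 2972 at 3 h, and 2395 and 2078 at 6 h, with the control libraries far apart. mtNd3 fell by 49.0% at 3 h (-0.97, SE 0.20, adjusted p = 0.0347) and fell by 62.7% at 6 h (-1.42, SE 0.20, adjusted p = 0.00245). mtNd4l was at 1589 and 1770 CPM in the controls, 858 and 935 at 3 h, and 717 and 808 at 6 h. It fell by 46.6% at 3 h (adjusted p = 0.00383) and fell by 54.6% at 6 h (adjusted p = 0.000432). mtNd4, which overlaps the end of mtNd4l by 7 bases, was at 23756 and 24478 CPM in the controls, 17042 and 15366 at 3 h, and 12555 and 12100 at 6 h. mtNd4 had tight replicates and fell by 32.8% at 3 h (-0.57, SE 0.08, adjusted p = 0.00875) and fell by 48.9% at 6 h (-0.97, SE 0.08, adjusted p = 0.000234). At 3 h, mtNd3 was not called without any of the 3 h or 6 h libraries (log2 fold change -1.02 to -0.93), mtNd4l without 3 h replicate 1 (-0.85), or mtNd4 without 3 h replicate 2 (-0.50).

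mtNd5, the longest mRNA of the chromosome at 1824 bases and a proton-pumping subunit, was the 1 complex I row not called in this fit. Its levels were 9441 and 5988 CPM in the controls, 6128 and 4554 at 3 h, and 6815 and 5066 at 6 h. The groups overlapped, and the log2 fold change was -0.53 (SE 0.23, adjusted p = 0.197) at 3 h and -0.38 (SE 0.23, adjusted p = 0.249) at 6 h. Without control replicate 2, the lower of its control values, mtNd5 was called lower at 6 h (-0.67). In each group replicate 1 lay above replicate 2 (log2 ratio 0.66 in control, 0.43 at 3 h and 0.43 at 6 h). With replicate number added to the fit as a block, mtNd5 was called lower at 3 h (-0.51, SE 0.09) and at 6 h (-0.36, SE 0.09). The sources do not say that same-numbered libraries belong together.

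mtNd6, a membrane subunit of complex I and the 1 mRNA of the light-strand transcript, had the largest fitted fall of the mRNAs. It had 1136 and 607 counts in the controls, 498 and 352 at 3 h, and 525 and 329 at 6 h, which scaled to 84.2 and 74.2 CPM, 32.2 and 20.3 CPM, and 17.3 and 12.6 CPM. No group overlapped another. mtNd6 fell by 66.9% at 3 h (-1.60, SE 0.24, adjusted p = 0.0104) and fell by 81.1% at 6 h (-2.40, SE 0.24, adjusted p = 0.000538); the 3 h call was lost without 3 h replicate 2 (-1.30). Per length it was the lowest mRNA in every group, at 153 CPM per kb in control against 4229 for mtNd5, the next lowest. The sources used here do not say whether reads were taken along whole transcripts or near their ends, and if near their ends, dividing by length does not give a level; this holds for each value per kb given here. The level of mtNd5 per kb was 27.7 times that of mtNd6 in control, 57.9 times at 3 h and 113 times at 6 h.

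Set against the 12 heavy-strand mRNAs of the same library, a ratio that no library scaling alters, mtNd6 was also lower after treatment. It had 0.332 and 0.270 counts per 1000 heavy-strand mRNA counts in the controls, 0.183 and 0.121 at 3 h, and 0.121 and 0.0973 at 6 h. Control did not overlap the treated groups, whereas the 3 h and 6 h groups overlapped slightly. With every library scaled to its chrM total, a change is relative to the sum of all chrM counts, in which the most abundant rows weigh most. Under this scaling mtNd6 was called lower at 3 h (-1.01, SE 0.22) and at 6 h (-1.51, SE 0.22). The 8 light-strand tRNAs were too sparse to test, so the strand difference rests on 1 mRNA. Together they had 40 and 31 counts in the controls, 24 and 35 at 3 h, and 33 and 46 at 6 h. Per 1000 heavy-strand tRNA counts this averaged 134 ± 4.31 in control, 128 ± 3.84 at 3 h and 91.1 ± 24.2 at 6 h (SD, n = 2 each). With so few counts these SDs do not give the counting error. The heavy-strand sum also changed in make-up: mt-Tm held 107 of 291 and 62 of 236 counts in the controls, and 227 of 446 and 229 of 425 at 6 h. The ratio is therefore no measure of a light-strand change.

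**Figure D2:**
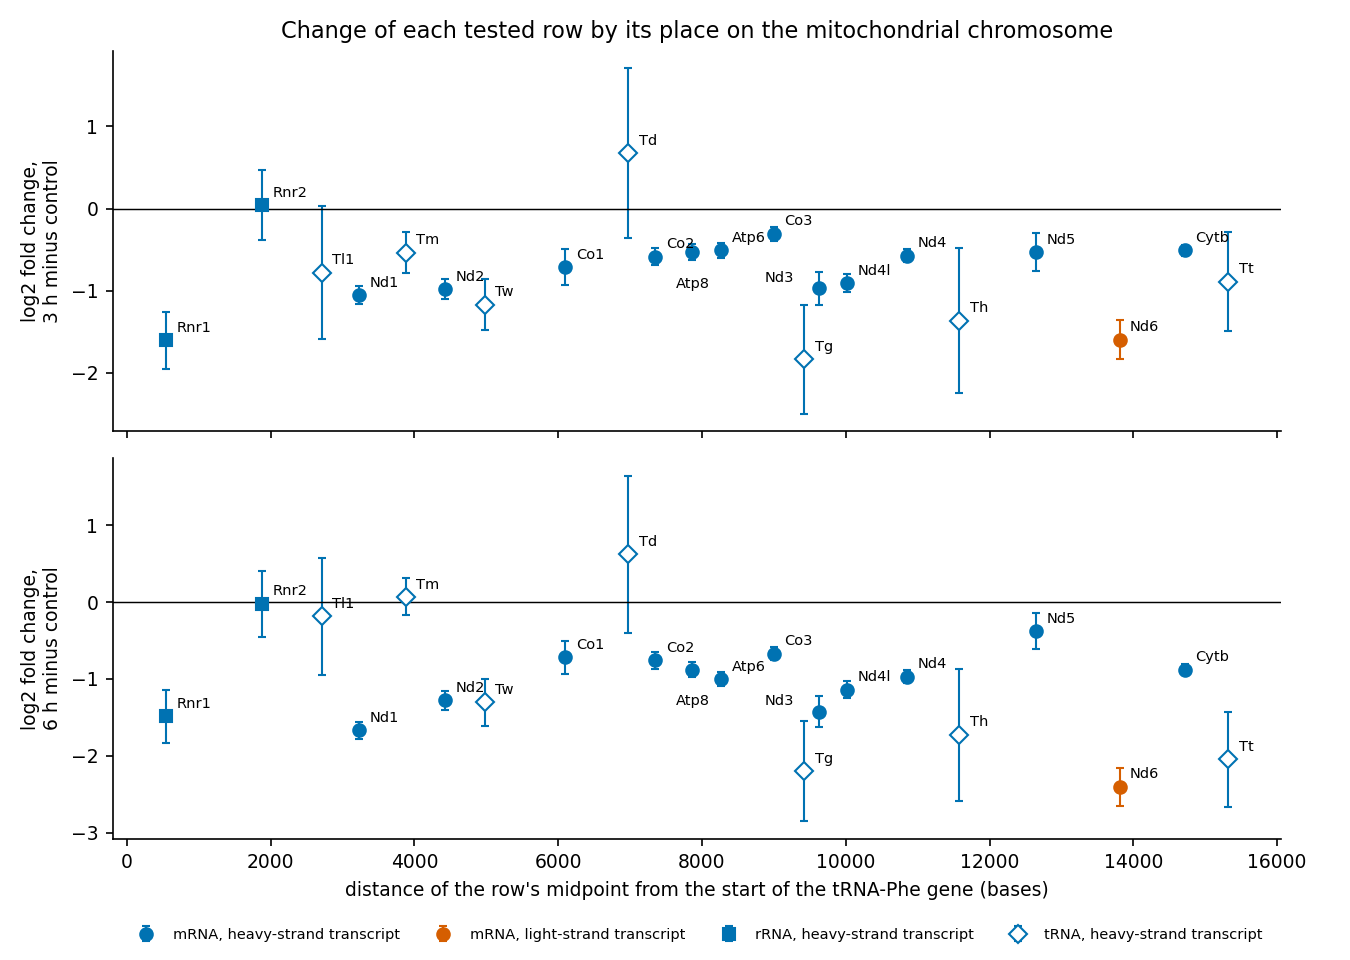
Log2 fold change against control (3 h above, 6 h below) of each of the 22 tested rows, plotted at the distance of its midpoint from the start of the tRNA-Phe gene; bars are the standard error of the fit. Heavy-strand mRNAs lie between -1.06 and -0.31 at 3 h and between -1.67 and -0.38 at 6 h, and mtNd6, the light-strand mRNA, lies below them at both times.

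mtCytb encodes cytochrome b, the only subunit of complex III made in mitochondria. It was at 54561 and 56674 CPM in the controls, 39817 and 38395 at 3 h, and 30556 and 29998 at 6 h, with close replicates and no overlap. mtCytb fell by 29.7% at 3 h (-0.51, SE 0.07, adjusted p = 0.00765) and fell by 45.6% at 6 h (-0.88, SE 0.07, adjusted p = 0.000172). Without a 3 h library the 3 h value stayed near this size (-0.54 and -0.48) but was not called.

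Of the 3 subunits of complex IV, cytochrome c oxidase, that are encoded here, 1 was called lower at 3 h and 3 at 6 h, with a median of -0.59 and -0.72. mtCo2, which holds the first copper centre, was at 32052 and 39074 CPM in the controls, 22775 and 24627 at 3 h, and 22031 and 19981 at 6 h. It fell by 33.4% at 3 h (-0.59, SE 0.11, adjusted p = 0.0227) and fell by 40.9% at 6 h (-0.76, SE 0.11, adjusted p = 0.00228), and neither treated group overlapped control. mtCo3, a structural subunit, was at 3793 and 4140 CPM in the controls, 3210 and 3203 at 3 h, and 2454 and 2534 at 6 h. Its log2 fold change at 3 h was -0.31 (SE 0.09, adjusted p = 0.0775), and it fell by 37.1% at 6 h (-0.67, SE 0.09, adjusted p = 0.00156). mtCo1, which carries the haem of the active site, was at 20361 and 22387 CPM in the controls, 15856 and 10233 at 3 h, and 15358 and 10656 at 6 h. In both treated groups replicate 1 lay well above replicate 2, though still below control. mtCo1 was at -0.71 (SE 0.21, adjusted p = 0.0891) at 3 h and fell by 39.1% at 6 h (-0.72, SE 0.21, adjusted p = 0.0365). Leaving out a library ended the 3 h call of mtCo2 (3 h replicate 1, -0.53, or 3 h replicate 2, -0.64) and the 6 h call of mtCo1 (control replicate 2, -0.64, or 6 h replicate 2, -0.48), while without control replicate 1 mtCo3 was called at 3 h (-0.37). With library size alone mtCo2 was not called at 3 h (-0.36) and mtCo1 not at 6 h (-0.36).

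Both ATP synthase subunits made in mitochondria were called lower at each time. mtAtp6, the subunit that forms the proton path of the membrane part, was the most abundant row per length in every group, at 95602 CPM per kb in control. Its levels were 60579 and 69631 CPM in the controls, 44141 and 47440 at 3 h, and 33868 and 31259 at 6 h. mtAtp6 fell by 29.7% at 3 h (-0.51, SE 0.09, adjusted p = 0.0211) and fell by 49.98% at 6 h (-0.9995, SE 0.09, adjusted p = 0.000325). mtAtp8, a small subunit of the same membrane part, was at 1689 and 1516 CPM in the controls, 1099 and 1117 at 3 h, and 910 and 834 at 6 h. It fell by 30.9% at 3 h (adjusted p = 0.0241) and fell by 45.6% at 6 h (adjusted p = 0.000902). The value per kb of mtAtp6 was 12.2 times that of mtAtp8 in control, 12.4 times at 3 h and 11.2 times at 6 h. At 3 h neither call held without a 3 h library (mtAtp6 -0.46 and -0.56, mtAtp8 -0.52 and -0.54 without replicates 1 and 2) or with library size alone (-0.28 and -0.31).

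The rRNAs of the small (mt-Rnr1) and the large (mt-Rnr2) mitochondrial ribosomal subunit differed from each other. mt-Rnr1 was at 5628 and 3007 CPM in the controls, 1660 and 1183 at 3 h, and 1082 and 2003 at 6 h. Both treated groups lay below control, although replicates were far apart in control and at 6 h. It fell by 67.1% at 3 h (-1.60, SE 0.34, adjusted p = 0.0379) and fell by 64.3% at 6 h (-1.49, SE 0.34, adjusted p = 0.0141). The 3 h call was lost without control replicate 1 (-1.08) or either 3 h library (-1.87 and -1.38), and the 6 h call without 6 h replicate 1 (-1.11).

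mt-Rnr2 was at 22566 and 6688 CPM in the controls, 16778 and 13298 at 3 h, and 13278 and 15557 at 6 h, so all treated libraries lay between the control libraries. Its log2 fold change was 0.04 (SE 0.43, adjusted p = 0.968) at 3 h and -0.02 (SE 0.43, adjusted p = 0.978) at 6 h. Its direction was set by which control library was kept: without control replicate 1 the change at 6 h was 1.11, and without control replicate 2 it was -0.64, both called. At 3 h the same omissions gave 1.17, called, and -0.58, not called. Within each library mt-Rnr1 had 249 and 450 counts per 1000 of mt-Rnr2 in the controls, 98.9 and 89.0 at 3 h, and 81.5 and 129 at 6 h, with no overlap between control and either treated group. rRNA made up 10.003% and 3.402% of chrM counts in the control libraries, 9.51% and 7.91% at 3 h, and 9.12% and 11.9% at 6 h.

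Whole tRNAs are short, 59 to 75 bases here, and counts on their rows were few: 15 of the 22 rows did not pass the filter. Those 15 rows had at most 14 counts in any library and 28 to 62 counts per library together, and 8 of the tRNA rows were at 0 in at least 1 library. The part of length, and of the choice of polyadenylated RNA, in these low counts was not tested. The 7 that passed are all on the heavy-strand transcript, and a row could pass through its higher group alone, so their number of calls is a description only. mt-Tw, the tRNA for tryptophan directly after mtNd2, had 94 and 86 counts in the controls, 60 and 66 at 3 h, and 116 and 83 at 6 h, or 6.97 and 10.5 CPM, 3.88 and 3.81 CPM, and 3.83 and 3.18 CPM. It was at -1.17 (SE 0.31, adjusted p = 0.0695) at 3 h and fell by 59.4% at 6 h (-1.30, SE 0.31, adjusted p = 0.0153). mt-Tg, the tRNA for glycine, had 23 and 24 counts in the controls, 8 and 13 at 3 h, and 17 and 11 at 6 h, and mt-Tt, the tRNA for threonine, had 32 and 18, 12 and 29, and 17 and 14. Both were called lower at 6 h, mt-Tg at -2.20 (SE 0.65, adjusted p = 0.0348) and mt-Tt at -2.05 (SE 0.62, adjusted p = 0.0379). All 3 calls were lost without either 6 h library and without control replicate 2; those values ran from -1.45 to -0.99 for mt-Tw, -2.43 to -1.78 for mt-Tg and -2.10 to -2.01 for mt-Tt. mt-Tg was also not called without either 3 h library (-2.20), mt-Tt without control replicate 1 (-1.99) or 3 h replicate 2 (-2.05), and neither with library size alone (-1.85 and -1.69).

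mt-Tm, the tRNA for methionine just before mtNd2, had the highest counts of the tRNAs in 5 of the 6 libraries (mt-Tw had more in control replicate 2) and was not called at either time. It had 107 and 62 counts in the controls, 75 and 101 at 3 h, and 227 and 229 at 6 h, or 7.93 and 7.58 CPM, 4.84 and 5.84 CPM, and 7.49 and 8.78 CPM. The log2 fold change was -0.54 (SE 0.25, adjusted p = 0.224) at 3 h and 0.07 (SE 0.24, adjusted p = 0.864) at 6 h. Against mtNd1 of the same library it had 0.365 and 0.293 counts per 1000 in the controls, 0.426 and 0.506 at 3 h, and 0.926 and 1.27 at 6 h, with no overlap between groups. Against mtNd2, the mRNA next to it, it had 0.407 and 0.468, 0.484 and 0.723, and 1.02 and 1.19, also with no overlap. Both ratios contain the falls of mtNd1 and mtNd2 given above. mt-Th, mt-Tl1 and mt-Td had at most 48 counts in any library and no call. mt-Td had 1 and 16 counts in the controls, 17 and 32 at 3 h, and 31 and 48 at 6 h, and its control levels of 0.0741 and 1.96 CPM bracket every treated library.

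With each library scaled to its chrM total, 5 of the 22 rows were called at 3 h: mtNd6 (-1.01), mt-Rnr1 (-1.02), mtNd1 (-0.46) and mtNd2 (-0.40) were lower and mtCo3 (0.28) was higher. At 6 h mtNd6 (-1.51), mtNd1 (-0.77), mtNd3 (-0.53) and mtNd2 (-0.38) were lower and mt-Tm (0.97) was higher. The remaining complex I rows were not called at 6 h, with mtNd4 at -0.07, mtNd4l at -0.24 and mtNd5 at 0.51. This scaling sets the chrM total at no change, so 98.7% of all called rows were to the higher side at 6 h, 99.3% at 3 h and 90.3% for 6 h against 3 h; it reads only differences within the chromosome. Complex I had 1434 and 1248 counts per 1000 of complex IV in the controls, 1161 and 1141 at 3 h, and 952 and 1036 at 6 h, with no overlap between groups. As a share of chrM counts, complex I mRNAs held 28.7% ± 0.0888 in control, 24.4% ± 0.926 at 3 h and 23.7% ± 0.531 at 6 h (SD, n = 2 each).

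**Figure D3:**
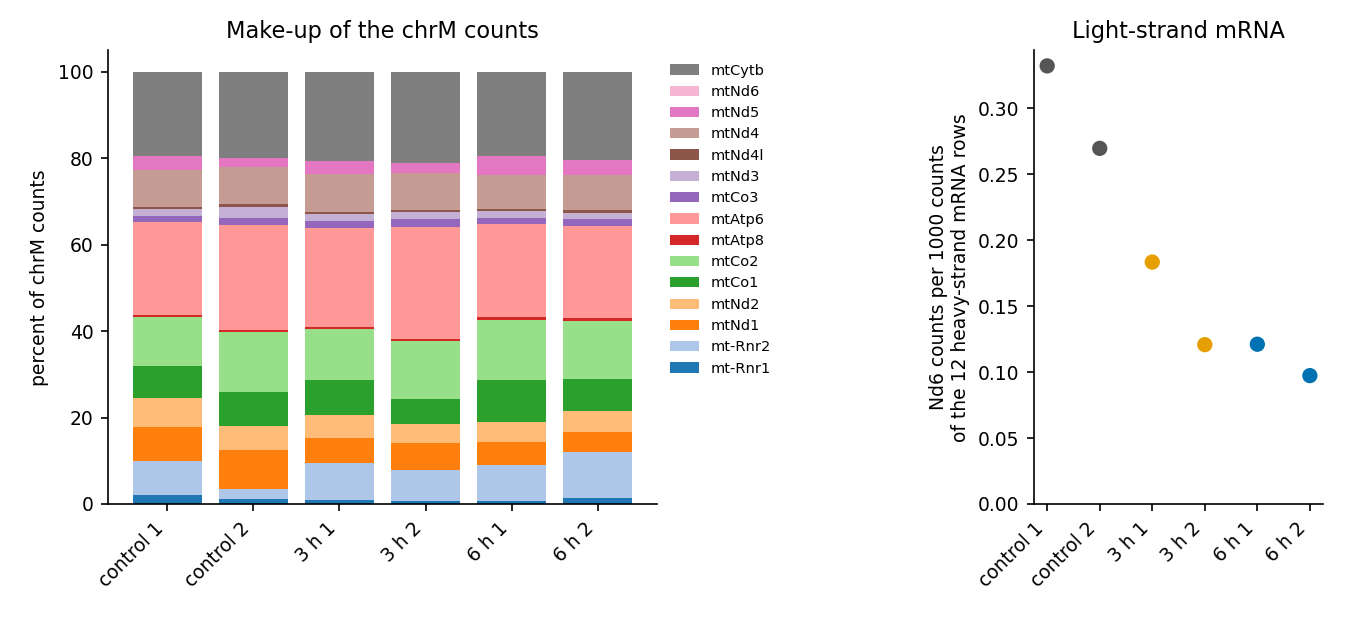
Left, the percent of chrM counts held by each mRNA and rRNA row in each library, stacked in chromosome order; right, mtNd6 counts per 1000 counts of the 12 heavy-strand mRNAs in each library. The rRNA bands (mt-Rnr1 and mt-Rnr2) differ between the 2 control libraries, and the mtNd6 ratio is highest in the control libraries (0.332 and 0.270).

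Values per kb spanned a wide range. In control mtAtp6 led with 95602 CPM per kb, followed by mtCo2 (51993 ± 7259) and mtCytb (48617 ± 1306; SD, n = 2), which did not differ beyond their spread. mtNd1 came next at 24876 ± 3050, and mtNd4, mtNd3 and mtNd2 lay within their spread of each other at 17501 ± 371, 17242 ± 6074 and 17181 ± 2245. By 6 h mtNd1 had moved from the fourth to the seventh place, at 7839 ± 868 CPM per kb, next to mtCo1 (8419 ± 2152) and mtNd2 (7098 ± 14.8). The first 3 places were the same at all times.

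Place on the chromosome ordered the changes of the heavy-strand mRNAs only loosely. The 2 mRNAs nearest the tRNA-Phe gene, mtNd1 and mtNd2, had the lowest fitted values of the 12 at 3 h, while mtNd3 and mtNd4l, farther along, were lower than the mtCo1 to mtCo3 stretch before them. Across the 12 rows, the log2 fold change and the distance from tRNA-Phe had a Pearson r of 0.52 (Spearman rho 0.53) at 3 h and 0.51 (0.34) at 6 h, and length had an r of 0.44 (0.43) at 6 h. These describe 12 genes measured in the same libraries, which are not independent replicates.

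Among the heavy-strand mRNAs, length and the longest run of A also went with the difference between replicates. Over the 12 heavy-strand mRNAs, the log2 ratio of replicate 1 to replicate 2 and length had an r of 0.77 (rho 0.79) at 3 h, 0.54 (0.45) in control and 0.57 (0.34) at 6 h. For the longest run of A in the transcript the values were 0.80 (0.86), 0.53 (0.58) and 0.42 (0.31). With mtNd6 included, over all 13 mRNAs, both were weaker in r. Length then had 0.50 (0.55) at 3 h, 0.47 (0.35) in control and 0.41 (0.22) at 6 h, and the longest run of A 0.28 (0.45), 0.33 (0.36) and 0.11 (0.08). mtCo1 and mtNd5, the longest mRNAs, were thus among the rows whose treated libraries were farthest apart, and their errors are the largest of the heavy-strand mRNAs at both times. The part of either feature in the comparisons was not tested.

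**Figure D4:**
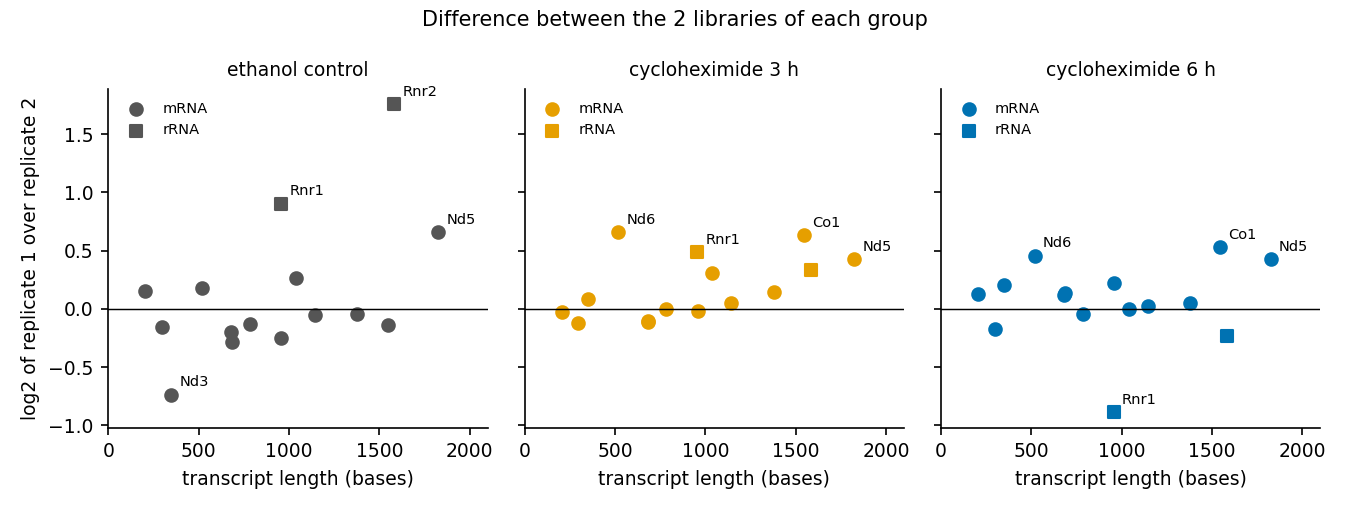
Log2 ratio of replicate 1 to replicate 2 for each mRNA (circles) and rRNA (squares) against transcript length in bases, 1 panel per group; rows more than 0.4 from 0 are named. Both rRNAs stand apart in control, and mtCo1 and mtNd5, the longest mRNAs, are above 0 in both treated groups.

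Between the treatment times the chrM rows differed less. For 6 h against 3 h, 3 of the 22 tested rows were called, all lower and all mRNAs, against 1.64% of all tested rows (1.18% lower, 0.455% higher), and the median of the 13 mRNAs was -0.36 against 0.01 over all rows. In 12 of the 22 rows both 6 h libraries lay below both 3 h libraries, and in 2 both lay above, against 26.9% and 27.2% of all tested rows. mtNd1 fell by 34.5% (-0.61, SE 0.11, adjusted p = 0.0345), mtAtp6 fell by 28.9% (-0.49, SE 0.09, adjusted p = 0.0369) and mtCytb fell by 22.6% (-0.37, SE 0.07, adjusted p = 0.0392). mtNd4 was at -0.39 (adjusted p = 0.0534) and mtNd6 at -0.81 (SE 0.24, adjusted p = 0.131), while mtCo1 differed by -0.288%. None of the 3 calls held without any one of the 3 h or 6 h libraries (mtNd1 -0.73 to -0.50, mtAtp6 -0.55 to -0.43, mtCytb -0.40 to -0.34), whereas 6 rows were called without either control library. With library size alone no row was called.

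Nuclear genes that serve mitochondrial RNA and DNA were tested in the same fit, and their counts at 6 h are near the background and are no result about the list. A list of 51 such genes, all in the files and 50 of them tested, had 4 members called higher and 1 lower at 3 h, where 3.6% of all rows were called higher and 1.3% lower. At 6 h it had 6 higher and 6 lower, where the shares over all rows were 14.8% and 14.3%. Its members' log2 fold changes had a median of -0.0016 at 3 h and 0.04 at 6 h. For 6 h against 3 h no member was called, where all rows gave 1.64%.

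Among the transcription proteins, Tfb2m, the factor that opens mitochondrial promoters, was at 21.4 and 27.6 CPM in the controls, 13.7 and 16.0 at 3 h, and 7.39 and 7.70 at 6 h. Tfb2m fell at 6 h (log2 fold change -1.69, SE 0.20, adjusted p = 0.00106) and was at -0.98 (adjusted p = 0.0519) for 6 h against 3 h. Tfam, which packages mitochondrial DNA and is needed to start transcription, fell at 6 h (-0.56, SE 0.12, adjusted p = 0.0103), a call lost without 6 h replicate 1 (-0.48) and with library size alone (-0.20). Polrmt, the mitochondrial RNA polymerase, was at 31.5 and 29.8 CPM in the controls, 24.9 and 32.5 at 3 h, and 31.9 and 25.3 at 6 h. Its groups overlapped throughout (-0.10, SE 0.18, adjusted p = 0.72 at 6 h). Nrf1, a nuclear regulator of mitochondrial genes, fell at 6 h (-0.79, SE 0.21, adjusted p = 0.0251; not called without control replicate 2, -0.53, or either 6 h library, -0.66 and -0.94) and was at -0.70 (adjusted p = 0.134) for 6 h against 3 h.

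Of the proteins that stabilise or degrade mitochondrial RNA, Slirp, the partner of Lrpprc in binding mRNAs, was called lower at 6 h (-0.42, SE 0.12, adjusted p = 0.029), and Lrpprc was at -0.13 (SE 0.12, adjusted p = 0.45). Mtpap, the poly(A) polymerase, was at 63.9 and 73.8 CPM in the controls, 84.6 and 62.8 at 3 h, and 87.3 and 82.5 at 6 h (0.31, SE 0.16, adjusted p = 0.197 at 6 h). Supv3l1, the helicase of the degrading complex, rose at 6 h (0.51, SE 0.15, adjusted p = 0.0382), and its partner nuclease Pnpt1 was at 0.17 (SE 0.13, adjusted p = 0.368). Rexo2, which clears short RNA pieces, fell from 144 ± 0.599 CPM in control to 89.7 ± 2.58 at 3 h and 77.4 ± 4.94 at 6 h (SD, n = 2; -0.90, SE 0.12, adjusted p = 0.00148 at 6 h). The calls of Slirp and Supv3l1 were lost without either 6 h library or control replicate 1 (-0.47 to -0.37 and 0.38 to 0.59), that of Slirp also without control replicate 2 (-0.41) and that of Supv3l1 without either 3 h library (0.51). With library size alone Slirp was at -0.06 and not called, Mtpap (0.66) and Pnpt1 (0.53) were called higher, and Polrmt (0.26) and Lrpprc (0.22) changed sign.

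The last 3 genes named by the rule serve mitochondrial DNA replication. Polg2, the accessory subunit of the DNA polymerase, rose from 6.63 ± 0.05001 CPM in control to 12.3 ± 0.0620 at 3 h and 18.4 ± 0.868 at 6 h (SD, n = 2; 1.47, SE 0.19, adjusted p = 0.00147 at 6 h). Mgme1, a nuclease that trims replicating DNA ends, rose (0.78, SE 0.13, adjusted p = 0.00398). Ssbp1, which binds single-stranded mitochondrial DNA, fell from 302 ± 6.84 CPM in control to 227 ± 13.1 at 3 h and 172 ± 7.09 at 6 h (SD, n = 2; -0.82, SE 0.11, adjusted p = 0.00152 at 6 h) and was at -0.40 (adjusted p = 0.0985) for 6 h against 3 h. Relative to the chrM total, Tfam, Slirp, Ssbp1 and Nrf1 were on the higher side.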

How the data were processed

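The files deposited by the authors hold raw counts, as whole numbers for each gene row of 1 library; genome build mm10 is named in the submitters' processing notes, and the labels give the molecule as polyadenylated RNA. The aligner, counting program, strandedness and molecular identifiers are not given in the sources used here; the series' design text mentions single-cell sequencing, but each file holds 1 column and was treated as 1 bulk library. Rows were kept by edgeR's filterByExpr (minimum count 10, minimum total 15), scaled by TMM and fitted with edgeR 4.0.16 in R 4.3.3 (glmQLFit, glmQLFTest; group means, 6 libraries, 3 residual degrees of freedom); p-values were adjusted by the Benjamini-Hochberg method over all 12755 tested rows. The fit was also run on simulated counts, drawn separately for each row with randomly chosen rows changed at 6 h. A large block of rows that shifts together, as the chrM rows may, was not simulated. Alternatives used limma 3.58.1, DESeq2 1.42.0, other scalings and filters, thinned libraries and omitted libraries. Groups and replicate numbers came from sample titles. Annotation and sequences came from GENCODE (GRCm38). The members, the 51 nuclear genes and the markers were chosen with earlier results of these data known. Values are given for each mRNA, rRNA and tested tRNA row, and of the nuclear list for 7 chosen genes, the 5 called ones with the smallest p at 6 h and the 3 with the smallest p for 6 h against 3 h.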

Additional observations from a re-analysis of the deposited data

Results flagged for a closer look

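The effect of cycloheximide against the shared control differed between 3 h and 6 h by a test of the difference itself for mtNd1 (6 h minus 3 h log2 fold change -0.61), mtAtp6 (-0.49) and mtCytb (-0.37). Each was lower at 6 h in both libraries than in either 3 h library. None of the 3 was called when any one of the treated libraries was left out.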

How the results depend on the processing

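The limits of these data are 2 libraries a group, a low depth on tRNA rows and a scaling in which the chrM rows are a large part of each library. Against control, TMM from nuclear rows, DESeq2 size factors and limma-voom left 11 chrM rows called at 3 h and 16 at 6 h; for 6 h against 3 h the counts were 3, 2 and 5. Over 8768 rows with a mean count of at least 100, most of them nuclear, same-numbered deviations of the libraries correlated little (0.17, -0.04 and 0.02). The chrM rows were not checked apart from these, and in mtNd5 replicate 1 lay above replicate 2 in every group. With the replicate block 10, 15 and 0 chrM rows were called in the 3 comparisons, and 426, 3550 and 126 rows in all. The block ended the calls of mt-Rnr1 and mtNd3 at 3 h, of mt-Tg and mt-Tt at 6 h and of mtNd1, mtAtp6 and mtCytb between the times, and mtNd5 was called lower with it at 3 h (-0.51) and 6 h (-0.36). The alternative fits gave 1393 values for single genes, of which 1187 kept direction and call and 62 changed sign. Of those that kept their sign, 101 lost a call and 43 gained one. Some that changed sign also lost a call, such as mtAtp6 at 3 h scaled to the chrM total. The cause was not tested beyond the settings' own construction.

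Rows called at 3 h, 625 in the fit reported, were 1373 with library size alone, 5672 scaled to the chrM total (5 chrM), 1816 without a filter, 1447 with DESeq2's Wald test, 218 with only the libraries compared and 108 to 1033 with a library left out (3 to 13 chrM). At 6 h, 3703 became 8648 scaled to the chrM total (5 chrM) and 1312 to 3578 with a library left out. For 6 h against 3 h, 209 became 889 scaled to the chrM total (0 chrM), 1063 without a filter (9), 688 with the Wald test (7), 508 with limma-voom (5), 126 with the block (0), 563 with only the libraries compared (6) and 14 to 595 with a library left out (0 to 6); library size alone gave 0 chrM rows. The chrM share was 23.5%, 17.9% and 15.5% without rRNA rows, and 25.9%, 20.2% and 17.8% without the 10 most abundant nuclear rows, in control, 3 h and 6 h; single libraries ran from 24.7% to 24.9%, 18.9% to 19.6% and 16.6% to 17.4%.

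Many changes of sign came under scaling to the chrM total, which sets that total at no change. At 3 h these were mt-Tm 0.0547, mtAtp6 0.0843, mtAtp8 0.0574, mtCo2 0.00697, mtCo3 0.28, mtCytb 0.0812, mtNd4 0.0143 and mtNd5 0.0515. At 6 h they were mt-Rnr2 0.88, mt-Tl1 0.70, mtAtp8 0.0164, mtCo1 0.17, mtCo2 0.14, mtCo3 0.23, mtCytb 0.0196, mtNd5 0.51, Polrmt 0.79, Tfam 0.34, Lrpprc 0.77, Slirp 0.48, Ssbp1 0.0805 and Nrf1 0.11. For 6 h against 3 h they were mt-Rnr2 0.26, mt-Td 0.26, mt-Tw 0.17, mtCo1 0.30, mtCo2 0.13, mtNd2 0.0165 and mtNd4l 0.0747. With library size alone, mt-Rnr2 (0.34), mt-Tl1 (0.17), Polrmt (0.26) and Lrpprc (0.22) changed sign at 6 h, and mt-Rnr2 (0.0715), mt-Td (0.0793) and mtCo1 (0.13) for 6 h against 3 h. mt-Rnr2 at 6 h was 0.17 with limma-voom and 0.18 with the block. mtCo1 for 6 h against 3 h was 0.00034 without a filter, 0.0047 with a stricter one, 0.0146 with limma-voom and 0.0019 with the block.

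With a library left out, mt-Rnr2 ran from -0.58 to 1.17 at 3 h, -0.64 to 1.11 at 6 h and -0.22 to 0.12 for 6 h against 3 h, and mt-Td from -0.41 to 4.21, -0.45 to 4.16 and -0.52 to 0.38. At 6 h mt-Tl1 ran from -0.42 to 0.17, mt-Tm from -0.0507 to 0.175 and Polrmt from -0.278 to 0.0570. For 6 h against 3 h mt-Rnr1 ran from -0.39 to 0.49, mt-Th from -1.16 to 0.18, mtCo1 from -0.29 to 0.35 and mtNd5 from -0.0774 to 0.387.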
